A study of Mus musculus with 6 samples.

Results

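Keratins, the intermediate filament proteins of epithelia, were followed by RNA-seq in 6 tumors of NT3 mice. The members were the 47 genes of 23358 table entries whose ID is Krt followed by digits only. Krt6a, Krt6b, Krt33a and Krt33b carry a letter and were not members, and Krt3, Krt72, Krt87 and Krt90 have no row in the table used here. NT3 is a form of NIK, the NF-κB-inducing kinase, that lacks its TRAF3-binding domain. It is carried as a conditional transgene on C57Bl/6J and is switched on where Cre removes a stop cassette. The Osx-Cre;NT3 group holds 3 tumors (13, 18 and 25) from mice of mixed C57Bl/6J and CD1 descent on the Cre side, in which a Tet-OFF Osx (osterix) GFP::Cre transgene was held off by doxycycline chow until weaning. The FSP1-Cre;NT3 group holds 3 tumors (27, 29 and 36) from mice with the constitutive FSP1-Cre transgene (FSP1 is S100a4) on FVB/n. All 6 mice were female and all carried NT3 and a Cre. Osteoblast precursors and fibroblast-like cells are the usual targets of these drivers. Which cells recombined NT3 in these tumors was not tested here. Tumors 13, 18, 25 and 29 were on the trunk and tumors 27 and 36 were perineal, and latency was 115 to 168 days in Osx-Cre;NT3 and 52 to 101 days in FSP1-Cre;NT3. Line, strain background and latency therefore cannot be told apart, no tumor lacked NT3, and no normal skin was analysed here. Overlying tissue was trimmed at excision, and the tumors sequenced had been screened for low content of blood RNA.

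Summed counts per tumor ranged from 51824408 to 163297772, so that 3 counts stood for 0.0184 to 0.0579 CPM (counts scaled to library size). Basal keratinocyte genes were present in all 6 tumors, with Trp63, the master regulator of stratified epithelium, at 26.4 to 55.9 RPKM (reads scaled to coding length in kilobases and to library size). Fibroblast genes were present as well, with Col1a1 at 143 to 680 RPKM. In such bulk samples, fewer cells of a type and less RNA per cell cannot be told apart. Tumor 36 stood apart from the others in many of the results below, and these are given with and without it. Whether the samples are independent beyond the tumor numbers is not stated, and p-values measure only the spread between these tumors.

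Keratin filaments are built from pairs of 1 type I (acidic) and 1 type II (basic) chain, and each epithelium uses its own pairs. Basal cells of stratified epithelia make Krt5 with Krt14, and differentiating epidermal cells exchange these for Krt1 with Krt10. The inner root sheath and the shaft of the hair each have keratins of their own, and single-layered epithelia use Krt8 with Krt18, to which Krt7, Krt19 and Krt20 are added in particular organs. The genes lie in a pair of clusters. In the deposited table, on mm10, 25 members, all type I, lie on chromosome 11 between 99233098 and 100269871. The other 22 lie on chromosome 15 between 101349571 and 102032026 and are 21 type II genes and Krt18, a type I gene next to Krt8.

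Start-site sequences are shown for the genes that carry the main patterns: Krt5 for the basal class, Krt10 for the epidermal class, 5 inner root sheath genes and Krt20. RefSeq promoter windows (GRCm38.p6, from 250 bases before the start to 50 from it) were found for 33 of the 47 members, and in 32 of them the start lay within 100 bases of the gene's 5′ end in the table. Each line below is the 100-base stretch from 80 bases before the start, 5′ to 3′ on the minus strand, with the letters TATAAA in capitals.
Krt5, chr15:101712886-101712985: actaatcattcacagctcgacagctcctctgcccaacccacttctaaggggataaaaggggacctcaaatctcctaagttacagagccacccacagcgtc
Krt10, chr11:99389345-99389444: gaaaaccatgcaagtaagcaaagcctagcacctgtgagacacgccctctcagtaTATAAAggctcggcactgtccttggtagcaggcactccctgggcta
Krt25, chr11:99322932-99323031: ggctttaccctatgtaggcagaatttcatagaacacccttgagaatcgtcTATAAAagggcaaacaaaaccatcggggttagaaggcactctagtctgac
Krt27, chr11:99351099-99351198: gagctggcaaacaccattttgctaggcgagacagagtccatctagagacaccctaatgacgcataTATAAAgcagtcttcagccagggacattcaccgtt
Krt28, chr11:99374884-99374983: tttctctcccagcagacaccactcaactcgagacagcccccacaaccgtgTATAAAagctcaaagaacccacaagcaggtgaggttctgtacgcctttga
Krt71, chr15:101743078-101743177: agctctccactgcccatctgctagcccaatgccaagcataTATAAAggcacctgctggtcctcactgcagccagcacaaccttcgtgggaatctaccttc
Krt73, chr15:101802341-101802440: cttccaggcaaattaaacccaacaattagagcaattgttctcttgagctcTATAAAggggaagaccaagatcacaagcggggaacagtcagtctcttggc
Krt20, chr11:99438134-99438233: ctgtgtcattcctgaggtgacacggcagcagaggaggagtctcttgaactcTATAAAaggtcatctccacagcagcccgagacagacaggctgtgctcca
TATAAA, searched on both strands, was present in 17 of the 32 windows (53.1%), and 13.6% of all 32851 promoter windows held it. In 12 of these windows it began 26 to 31 bases before the start, including Krt25, Krt28 and Krt73 at 30 bases, Krt20 at 29 bases and Krt10 at 26 bases. The hair follicle sheath genes held it in 6 of 8 windows. The AP-1 letters TGANTCA, in which N is any base, were present in 1 of the 32 keratin windows and in 7.81% of all windows. The κB consensus, the site of the factors that NIK activates, was present in 3 of the 32 (Krt18, Krt23 and Krt79), 9.38% against 8.46% of all windows. Krt14 was left out of the 32 because its window's start lay 1480 bases from the gene's deposited 5′ end. That window held a κB match beginning 107 bases before its start. These matches describe letters and not binding, and motif hits were not counted for overlap with each other.

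Keratin RNA was abundant in every tumor. The summed level of the 47 genes was 7741, 5546 and 6279 RPKM in Osx-Cre;NT3 (tumors 13, 18 and 25) and 5859, 7119 and 5390 RPKM in FSP1-Cre;NT3 (tumors 27, 29 and 36), the order of tumors in which values are given from here on. This was 1.07% to 1.92% of the summed RPKM of all entries and 1.17% to 1.72% of counts. The total varied little, and the share of its leading genes varied mainly through tumor 36, as given below. The number of members with a level of at least 1 RPKM was 17 in tumor 29 and 18 in tumor 13, 21, 22 and 27 in tumors 27, 18 and 25, and 36 in tumor 36. Of the 47 members, 38 reached that level in at least 1 tumor and 12 in every tumor. Krt5, Krt14, Krt15 and Krt17 together made up 91.4% to 94.2% of keratin RPKM in 5 tumors and 51.2% in tumor 36.

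**Figure D1:**
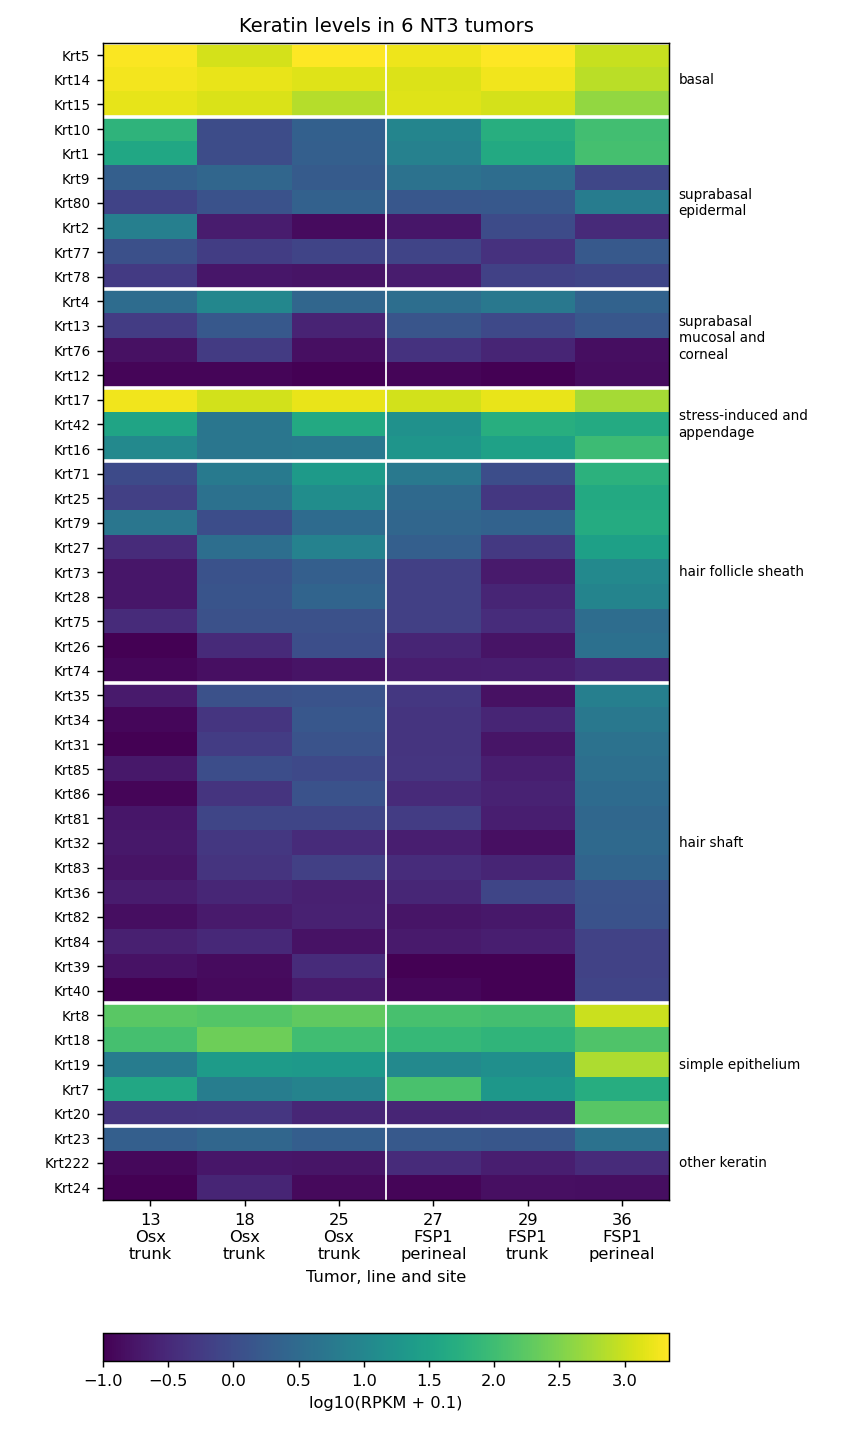
Level of each of the 47 keratin genes (rows, by class and then by mean) in the 6 tumors (columns, with line and site), coloured as log10(RPKM + 0.1). The basal genes and Krt17 are bright in all 6 tumors, and 33 of the 47 genes are highest in tumor 36.

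The basal class led the family in all tumors. Its 3 members, Krt5, Krt14 and Krt15, summed to 5467, 3972 and 4280 RPKM in the Osx-Cre;NT3 tumors and to 4342, 5094 and 2186 RPKM in the FSP1-Cre;NT3 tumors 27, 29 and 36. That was 68.2% to 74.1% of keratin RPKM in 5 tumors and 40.6% in tumor 36. Without tumor 36 the summed level spanned only 1.38-fold.

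Krt5, the type II chain of basal cells, was measured at 2088, 1141 and 2200 RPKM in the Osx-Cre;NT3 tumors and at 1702, 2153 and 955 RPKM in the FSP1-Cre;NT3 tumors. Its partner Krt14 was at 1857, 1597 and 1353 RPKM and at 1295, 1809 and 796 RPKM. Krt15, a basal chain also known from the hair follicle bulge where stem cells lie, was at 1522, 1235 and 727 RPKM and at 1345, 1133 and 435 RPKM. Tumor 36 was lowest for all 3 genes, and the values of the 2 lines overlapped. Over the 6 tumors the levels were 1706 ± 543 for Krt5, 1451 ± 394 for Krt14 and 1066 ± 408 RPKM for Krt15 (SD, n = 6). These SDs lie between tumors and do not compare genes within a tumor. Krt5 was above Krt14 in every tumor but tumor 18, and Krt14 was above Krt15 in every tumor but tumor 27. The ratio of Krt5 to Krt14 was 0.715 to 1.63 with a median of 1.19. Of the 50-base stretches of the Krt14 transcripts, 13.9% also occur in other genes, mostly Krt16, and the authors' counting could have split such reads.

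Basal-layer genes other than keratins, a list of 8 with Trp63, the integrins Itga6 and Itgb4 and the hemidesmosomal collagen Col17a1, summed to 205, 96.2 and 473 RPKM and to 306, 261 and 165 RPKM. Tumor 36, lowest for basal keratins, was second lowest for the sum of these genes after tumor 18. The single genes were mixed. Trp63 and Cdh3 were lowest in tumor 36, while 1 of the 8, Dsg3, was highest there. Dsg3 was at 22.2 CPM in tumor 36 against 2.12 to 13.9 CPM elsewhere. Itga6 was second highest in tumor 36, at 185 CPM, after tumor 25. None of the 8 passed the test between lines described below.

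Krt17 carried the class of stress-induced and appendage keratins. This type I chain, made in hair follicles and in injured or activated epidermis, was at 1767, 1098 and 1548 RPKM in the Osx-Cre;NT3 tumors and at 1100, 1609 and 574 RPKM in the FSP1-Cre;NT3 tumors. Its mean level of 1283 ± 443 RPKM (SD, n = 6) fell between those of Krt14 and Krt15. Krt17 was below Krt14 in every tumor but tumor 25. Krt42, a close type I relative of Krt17, was far lower, at 33.9, 4.97 and 43.0 RPKM and at 15.5, 52.4 and 44.6 RPKM.

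Krt16, a type I chain of wounded and hyperproliferative epidermis, was at 10.8, 4.92 and 5.43 RPKM in Osx-Cre;NT3 and at 18.5, 30.0 and 93.7 RPKM in FSP1-Cre;NT3. The groups did not overlap. The lettered genes Krt6a and Krt6b, type II partners of Krt16 and Krt17, were at 2.1 to 5.54 and 0.607 to 4.81 RPKM in 5 tumors and at 55.4 and 54.4 RPKM in tumor 36. Of all 50-base stretches of Krt16, 37.6% also occur in other genes and 25.2% occur in Gm11597, so the level of Krt16 is uncertain.

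The suprabasal epidermal keratins varied 37.0-fold in sum between tumors, and 18.6-fold without tumor 36. Krt10, the main type I chain of the differentiating epidermis, was at 66.9, 0.922 and 2.00 RPKM in the Osx-Cre;NT3 tumors and at 9.41, 53.1 and 107 RPKM in the FSP1-Cre;NT3 tumors. Krt1, its type II partner, was at 38.9, 0.921 and 1.95 RPKM and at 8.06, 42.6 and 116 RPKM. Tumors 36, 13 and 29 were thus high for both genes and tumors 18 and 25, both Osx-Cre;NT3, were low. Tumor 13, of the same line, was within the range of the FSP1-Cre;NT3 tumors for both genes. The ratio of Krt1 to Krt10 stayed within 0.582 to 1.08 while Krt1 and Krt10 themselves spanned 126-fold and 116-fold.

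The other 5 genes of the class were low. Krt2, a type II chain of the late epidermis, was at 7.40 RPKM in tumor 13, at 0.893 RPKM in tumor 29 and at 0.0351 to 0.232 RPKM in the other 4. Krt9, known from the epidermis of palm and sole, was at 1.96, 2.57 and 1.63 RPKM and at 4.19, 3.44 and 0.734 RPKM. Krt80, a widely made type II chain, was at 0.649, 1.16 and 2.14 RPKM and at 1.42, 1.45 and 6.63 RPKM. Krt9 was lowest in tumor 36 and Krt80 highest there. Krt77 and Krt78 ranged from 0.0667 to 1.56 RPKM.

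Genes of the cornified layer, the outermost dead layer of the epidermis, were read from a list of 15, of which 14 were found. They summed to 185, 40.8 and 45.7 RPKM in Osx-Cre;NT3 and to 45.3, 99.3 and 533 RPKM in FSP1-Cre;NT3, and all 14 were highest in tumor 36. The order below tumor 36 was mixed within the list. Loricrin (Lor), a main protein of the cornified envelope, was at 11.6, 1.18 and 0.863 RPKM and at 3.57, 11.6 and 18.2 RPKM. Lor was thus high and low in the same tumors as Krt1 and Krt10. So was Calm4, at 63.0, 3.17 and 1.72 CPM and at 9.79, 40.9 and 159 CPM. Sprr1a was instead second highest in tumor 25, at 24.7 CPM. Sbsn was at 27.0 CPM in tumor 29, below tumors 18 and 25, at 41.8 and 39.3 CPM. Residual overlying epidermis in the excised tissue was not tested.

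The mucosal and corneal class was low throughout. Krt4, the type II chain of oral and oesophageal lining, was at 3.31, 9.97 and 2.59 RPKM and at 3.64, 5.33 and 2.21 RPKM. Its partner Krt13 was at 0.497, 1.45 and 0.174 RPKM and at 1.28, 0.810 and 1.38 RPKM. Krt76, of the palate, was at 0.0538, 0.460 and 0.0496 RPKM and at 0.328, 0.186 and 0.0437 RPKM. Krt12, of the cornea, was at 0.0168, 0.0159 and 0 RPKM and at 0.0146, 0 and 0.0408 RPKM. A count of 0 for Krt12 in tumors 25 and 29 allows up to 0.0185 and 0.0166 RPKM by counting error alone, or 0.0371 and 0.0331 RPKM if each read pair was counted as 2, since every deposited count was even. Tumor 18 was highest for Krt4, Krt13 and Krt76.

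**Figure D2:**
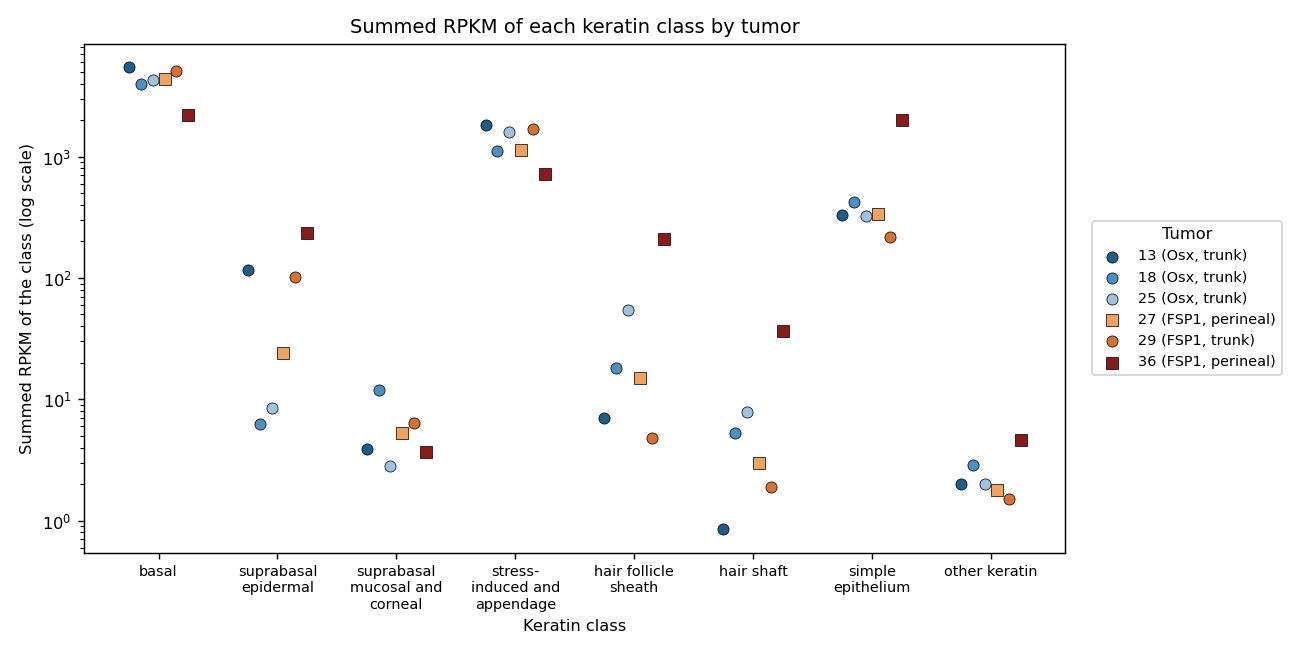
Summed RPKM (log scale) of each keratin class in the 6 tumors, 1 point per tumor (circles trunk, squares perineal, blue Osx-Cre;NT3, orange to red FSP1-Cre;NT3). Basal and stress-induced classes span 2.5-fold and 2.54-fold, while the suprabasal epidermal, sheath and shaft classes span 37.0-fold, 43.5-fold and 43.1-fold.

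Most keratins of the hair follicle sheath and shaft were high and low in the same tumors. The 9 sheath members summed to 7.03, 18.1 and 55.0 RPKM in the Osx-Cre;NT3 tumors and to 15.0, 4.79 and 208 RPKM in the FSP1-Cre;NT3 tumors. The 13 shaft members summed to 0.847, 5.33 and 7.89 RPKM and to 3.00, 1.89 and 36.5 RPKM. Tumor 36 was highest for all 22 genes, tumor 25 was second for 15 of them and tumor 13 or tumor 29 was lowest for 19. Over all entries with a count, tumor 36 was highest for 25.7% and tumor 13 or 29 lowest for 33.0%. Without tumor 36 the sheath sum still spanned 11.5-fold and the shaft sum 9.32-fold.

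Krt71 and Krt25, a type II and a type I chain of the inner root sheath whose start-site stretches are shown above, led the sheath genes. Krt71 was at 0.858, 5.77 and 23.5 RPKM in Osx-Cre;NT3 and at 5.55, 0.960 and 60.7 RPKM in FSP1-Cre;NT3. Krt25 was at 0.565, 4.06 and 13.5 RPKM and at 2.89, 0.397 and 43.1 RPKM, and the ratio of Krt71 to Krt25 stayed within 1.41 to 2.42. Krt27, another type I chain of the inner root sheath, was at 0.243, 3.58 and 8.25 RPKM and at 1.97, 0.426 and 29.3 RPKM. For all 3, tumors 36, 25, 18 and 27 followed each other in that order from the top, and tumors 13 and 29 were the 2 lowest. Krt25 and Krt27 share 50-base stretches with each other, 10.9% and 11.1% of their own with other genes.

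Krt79, which is made in the follicle opening and the sebaceous duct, did not keep that order. It was at 4.92, 0.976 and 3.23 RPKM and at 2.56, 2.26 and 47.2 RPKM, so tumor 13 was second and tumor 18 lowest. Krt79 was counted in the sheath sum. It was most of that sum in tumor 13, 7.03 RPKM, and a large part of it in tumor 29, 4.79 RPKM. The other sheath genes, Krt73, Krt28, Krt75, Krt26 and Krt74, reached 11.1, 9.10, 3.46, 3.95 and 0.206 RPKM in tumor 36 and stayed at or under 2.42 RPKM elsewhere. Krt74 was second highest in tumor 29, at 0.129 RPKM.

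Tumor 36 was highest for Krt1, Krt10 and all 9 sheath genes. Below tumor 36 the epidermal and sheath patterns differed although the genes are neighbours. Krt28 and Krt10 lie 10353 bases apart on chromosome 11. In tumor 13 Krt28 was at 0.0835 RPKM and Krt10 at 66.9 RPKM. In tumor 25 Krt28 was at 2.42 RPKM and Krt10 at 2.00 RPKM. Tumors 13 and 29, high for Krt1 and Krt10, were the 2 lowest for Krt71, Krt25, Krt27, Krt73 and Krt28.

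**Figure D3:**
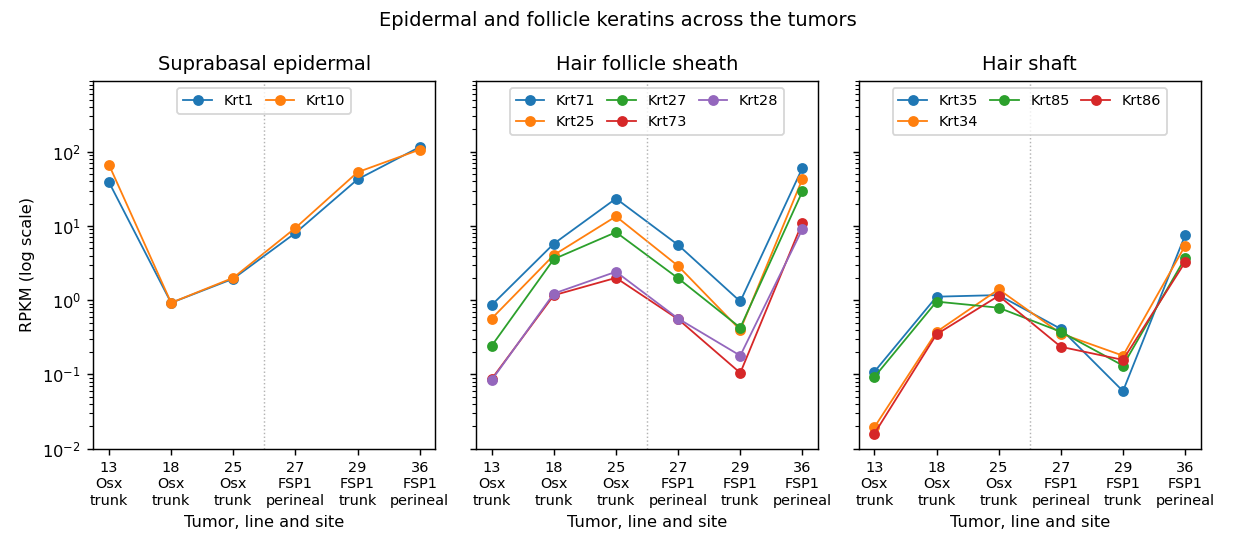
RPKM (log scale) of 2 suprabasal epidermal, 5 hair follicle sheath and 4 hair shaft keratins in the 6 tumors, with thin lines joining the values of a gene and a dotted line between the 2 Cre lines. Krt1 and Krt10 are low in tumors 18 and 25, and the sheath genes are low in tumors 13 and 29.

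Hair shaft keratins were low outside tumor 36, where 10 of the 13 exceeded 1 RPKM. Krt35, an early type I chain of the forming shaft, was at 0.108, 1.11 and 1.17 RPKM and at 0.410, 0.0594 and 7.53 RPKM. Krt34 was at 0.0194, 0.374 and 1.40 RPKM and at 0.355, 0.179 and 5.42 RPKM. Krt85, an early type II shaft chain, was at 0.0921, 0.956 and 0.791 RPKM and at 0.375, 0.131 and 3.70 RPKM. These genes were low in tumors 13 and 29, as the sheath genes were.

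Krt31, a type I chain of the shaft cortex, was at 0, 0.492 and 1.17 RPKM and at 0.343, 0.0777 and 4.17 RPKM, and its count of 0 in tumor 13 allows up to 0.0295 RPKM, or 0.0590 RPKM with pairs counted as 2. Krt82, of the hair cuticle, was at 0.0445, 0.108 and 0.153 RPKM and at 0.0777, 0.0879 and 1.16 RPKM. The remaining shaft genes reached 0.610 to 3.26 RPKM, all in tumor 36. Below tumor 36, Krt36 was highest in tumor 29, at 0.701 RPKM, and Krt84 was lowest in tumor 25, at 0.0624 RPKM. Shared 50-base stretches make 43.3% of Krt86, 37.7% of Krt81, 33.1% of Krt34, 28.1% of Krt31 and 22.1% of Krt83, and the deposited span of Krt85 covers Krt81, Krt83 and Krt86, so levels of single genes in this class are uncertain.

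Of the other hair genes, the keratin-associated proteins were high in the same tumors as these keratins, and the sheath and regulator genes were mixed. These proteins, the matrix that cross-links shaft keratins, had 52 genes in the table, which summed to 1.52, 25.8 and 79.0 RPKM and to 26.8, 6.24 and 325 RPKM. All 52 were highest in tumor 36, and the order of the tumors was close to that of the shaft keratins. An inner root sheath list of 8 other genes summed to 77.5, 108 and 97.4 RPKM and to 95.0, 64.2 and 172 RPKM, with 7 of 8 highest in tumor 36. Trichohyalin (Tchh), a matrix protein of that sheath, was at 2.25, 4.24 and 12.7 RPKM and at 4.48, 3.38 and 29.4 RPKM. Gata3, a regulator of the sheath, was in contrast lowest in tumor 25, at 0.435 RPKM, and corneodesmosin (Cdsn) was second highest in tumor 13, at 1.29 RPKM, and lowest in tumor 18, at 0.349 RPKM. A hair shaft list of 9 other genes summed to 63.33 RPKM in tumor 36 and to at most 20.04 RPKM elsewhere, with 7 of 9 highest in tumor 36. Selenbp1 of this list was at 17.40 RPKM there and at most 0.531 RPKM elsewhere. The shaft regulators in the list were mixed. Foxn1 and Lef1 were highest in tumors 25 and 27, at 4.81 and 6.35 RPKM. Hoxc13, Msx2 and Dlx3 were highest in tumor 36, at 1.01, 1.14 and 2.016 RPKM, with Dlx3 at 1.830 RPKM in tumor 25. Hair follicles of adjoining skin as a source were not tested.

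The simple epithelium class stood apart in tumor 36, where Krt8, Krt19 and Krt20 were highest. Its 5 members summed to 331, 420 and 325 RPKM in Osx-Cre;NT3 and to 335, 216 and 2005 RPKM in FSP1-Cre;NT3, which was 3.04% to 7.58% of keratin RPKM in 5 tumors and 37.2% in tumor 36. Krt8, the type II chain of single-layered epithelia, was at 171, 149 and 193 RPKM and at 119, 112 and 1006 RPKM. In tumor 36 Krt8 was the most abundant keratin, where Krt5 or Krt14 led elsewhere. Of its 50-base stretches, 26.9% also occur in the pseudogene Krt8-ps.

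Krt18, the partner of Krt8, was at 113, 240 and 101 RPKM and at 82.2, 70.4 and 141 RPKM, so that tumor 18 and not tumor 36 was highest. The ratio of Krt8 to Krt18 was 1.51, 0.620 and 1.92 in Osx-Cre;NT3 and 1.45, 1.58 and 7.12 in FSP1-Cre;NT3. Krt19, a type I chain of ducts, glands and gut lining, was at 6.45, 23.9 and 22.7 RPKM and at 11.1, 14.4 and 641 RPKM. Tumor 36 was 26.8-fold above the next tumor. With Krt19 and Krt20 added to Krt18, and Krt7 to Krt8, the ratio of type II to type I in tumor 36 was 1.11, within the range of the other 5 tumors, 0.589 to 2.58.

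Krt20, a type I chain of intestinal lining, urothelium and Merkel cells, separated tumor 36 most sharply. It was at 0.371, 0.377 and 0.190 RPKM in Osx-Cre;NT3 and at 0.183, 0.191 and 167 RPKM in FSP1-Cre;NT3, on counts of 46, 148 and 32 and of 26, 36 and 25504. The value of tumor 36 was 442-fold that of the next tumor. Krt20 shares no 50-base stretch with another gene. Its neighbours on chromosome 11 did not share the step, with Krt12, 6144 bases away, at 0.0408 RPKM in tumor 36 and Krt23, 39820 bases away, at 4.31 RPKM.

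Krt7, a type II chain of glands and ducts, had a pattern of its own. It was at 39.4, 6.88 and 8.71 RPKM and at 122, 20.0 and 50.3 RPKM, so that the perineal tumors 27 and 36 were the 2 highest.

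Genes of other epithelia, and of smooth muscle and myoepithelium, were also high in tumor 36. The intestine and anal gland list, 6 of 7 genes found, summed to 0.861 to 4.60 RPKM in 5 tumors and to 632 RPKM in tumor 36, and all 6 were highest there. Lgals4, a galectin of gut lining, was at 454 RPKM in tumor 36 and at most 1.75 RPKM elsewhere. Villin (Vil1) was at 55.1 RPKM against at most 0.985 RPKM, and Cdx1, a regulator of intestinal identity, at 55.0 RPKM against at most 0.371 RPKM, while Cdx2 was at 0.200 RPKM. Smooth muscle and myoepithelium genes, a list of 7, summed to 93.3 to 136 RPKM in 5 tumors. They summed to 1140 RPKM in tumor 36, with 6 of 7 highest there. The simple and luminal epithelium list of 10 summed to 342 to 546 RPKM in 5 tumors and to 1032 RPKM in tumor 36, with 7 of 10 highest there. It was mixed, since the claudin Cldn3 was at 254 RPKM in tumor 36 and at most 3.58 RPKM elsewhere, while the claudin Cldn4 was lowest in tumor 36, at 26.8 RPKM against 39.2 to 84.7 RPKM. The transcription factor Ehf was lowest there too, at 87.5 RPKM against 115 to 154 RPKM.

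Markers of the other cell types known for Krt20 were read from their own lists, and sums of unlike lists do not rank cell types. The urothelial list of 7 summed to 1.69 to 4.82 RPKM in 5 tumors and to 11.9 RPKM in tumor 36. Pparg made 8.40 RPKM of the latter, and 5 of the 7 genes were highest there. The uroplakins were mixed. Upk1a was highest in tumor 36, at 1.97 CPM against 0.166 to 0.430 CPM elsewhere. Upk1b and Upk3b were at 0.171 and 0.0372 RPKM there. Upk2 was lowest in tumor 36, at 0.313 CPM, and Upk3a was at 0.0625 CPM there and highest in tumor 18, at 1.48 CPM. The Merkel cell list, 7 of 8 found, summed to 1.28 to 8.18 RPKM in 5 tumors and to 9.92 RPKM in tumor 36. Of the 7 genes found, 6 were highest in tumor 36. Most of the level elsewhere was Cck, which was lowest in tumor 36 at 0.515 RPKM. Without Cck the list summed to 0.0781 to 0.921 RPKM in 5 tumors and to 9.41 RPKM in tumor 36. Leaving out Cck was a choice made after seeing the values. Cck was the only gene found that was not highest in tumor 36, so the choice itself widened the difference. Chga, a protein of neuroendocrine granules, was at 3.70 RPKM in tumor 36 and at most 0.173 RPKM elsewhere, and Atoh1, the Merkel and gut secretory cell regulator, was at 3.56 RPKM and at most 0.0110 RPKM. Isl1 was at 1.85 RPKM and at most 0.730 RPKM, and Sox2 and Pou4f3 were at 0.0514 and 0.0440 RPKM in tumor 36. The part of gut, smooth muscle, myoepithelium, Merkel cells or other tissue in the simple keratin levels of tumor 36 was not tested.

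**Figure D4:**
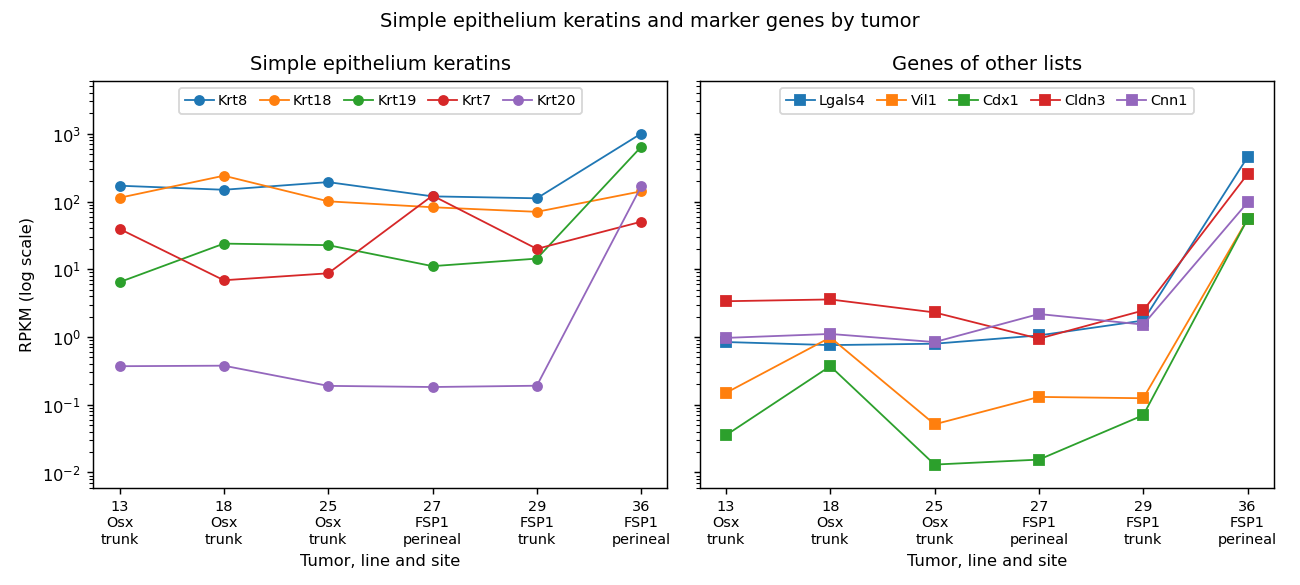
RPKM (log scale) of the 5 simple epithelium keratins (left) and of 5 genes from other lists (right) in the 6 tumors. These lists are the intestinal, the luminal, and the smooth muscle and myoepithelium list. Thin lines join the values of a gene. Krt20 is at or below 0.377 RPKM in 5 tumors and at 167 RPKM in tumor 36, where Lgals4, Vil1, Cdx1, Cldn3 and Cnn1 are also highest.

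Among the remaining members, Krt23, a type I chain of several epithelia, was at 2.00, 2.63 and 1.92 RPKM and at 1.53, 1.34 and 4.31 RPKM. Krt222 was at 0.0227, 0.0827 and 0.0754 RPKM and at 0.248, 0.127 and 0.240 RPKM. Krt24 was at 0, 0.181 and 0.0271 RPKM and at 0.0161, 0.0485 and 0.0448 RPKM. Over all 47 members, type II chains summed to less than type I chains in every tumor, at a ratio of 0.313 to 0.730 with a median of 0.498, and the lettered type II genes Krt6a and Krt6b are not part of it.

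The 2 Cre lines were compared by edgeR's quasi-likelihood test on counts, with Benjamini-Hochberg adjustment over 16415 genes. Of the 47 keratins, 43 passed the filter on low counts and Krt12, Krt24, Krt39 and Krt40 did not. No keratin differed between the lines at an adjusted p of 0.05, and neither did any other gene (percent called 0, smallest adjusted p over all genes 0.359). At an unadjusted p of 0.05 there were 5 of 43 keratins, 11.6%, beside 1770 of 16415 genes, 10.8%. The values of the lines did not overlap for 3 of 43 keratins, Krt16, Krt74 and Krt222, 6.98% beside 17.1% of all genes tested. The members thus stood near or under the background of all genes in each count.

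Krt16 had the smallest unadjusted p, at a log2 fold change of 2.67 ± 0.69 (SE) (positive where FSP1-Cre;NT3 was higher) and an adjusted p of 0.441 by edgeR. Krt20 had the widest difference, 7.40 ± 2.74 (adjusted p = 0.458), and it was -0.87 without tumor 36. Krt36, a hair shaft chain, gave 2.16 ± 0.74, Krt222 gave 1.63 ± 0.61 and Krt74 gave 1.57 ± 0.62, each at an adjusted p of 0.458. Krt5, Krt14 and Krt17 gave -0.27 ± 0.41, -0.40 ± 0.36 and -0.52 ± 0.42. DESeq2, run as an alternative, called 420 of 15461 genes, 2.72%, and 1 keratin of the 36 it gave an adjusted p, Krt16, at an adjusted p of 0.00533.

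The direction of most keratins turned when tumor 36 was left out. With all 6 tumors, 35 of 43 log2 fold changes were above 0 and the median was 1.21, beside 0.015 over all genes tested. Without tumor 36 the median was -0.57 with 13 of 43 above 0, and among trunk tumors alone, where FSP1-Cre;NT3 has only tumor 29 and its spread is assumed to be that of the others, it was -0.66 with 15 of 46 above 0. By class the median was -0.39 for basal, 1.16 for suprabasal epidermal, 1.36 for sheath, 1.5 for shaft and 1.64 for simple epithelium keratins with all 6 tumors. Krt71 and Krt35 went from 1.14 and 1.68 to -1.75 and -1.93 when tumor 36 was left out, and Krt8 from 1.20 to -0.69. In a list of 7 fibroblast genes all log2 fold changes were above 0, with a median of 1.28, and 6 were at an unadjusted p under 0.05, while none passed the adjusted test. The part of stromal content in the keratin values was not tested.

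**Figure D5:**
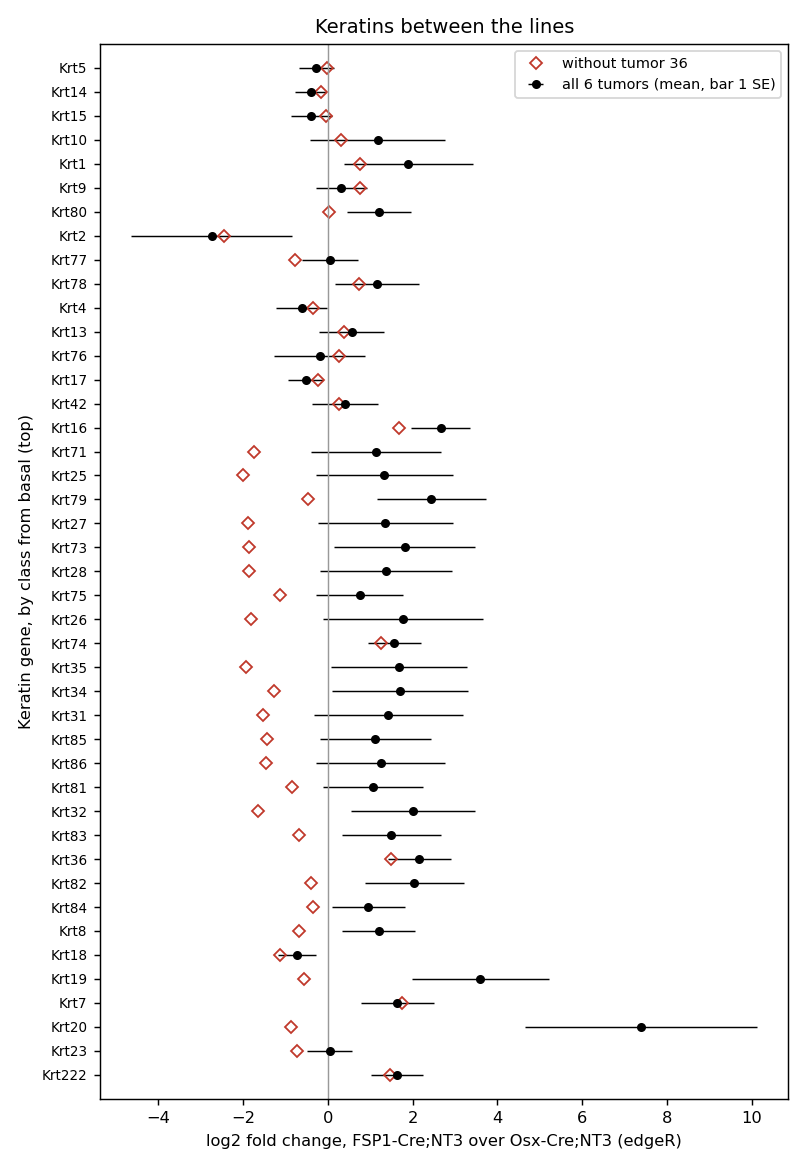
edgeR log2 fold change of FSP1-Cre;NT3 over Osx-Cre;NT3 for the 43 keratins tested, with all 6 tumors (points, bars of 1 SE) and without tumor 36 (open diamonds). With all tumors 35 of 43 lie above 0, and without tumor 36 13 of 43 do.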

How the data were processed

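RNA was sequenced from 6 NT3 tumors. The deposited table held counts and RPKM per gene entry and tumor on mm10. The sources differ on how the authors made it: the study's methods name HISAT2 and featureCounts, and the submitters' processing notes name TopHat2 2.0.6 and HTSeq. Strand and annotation are not given in the sources used here. Every deposited count was even, so each read pair may have been counted as 2. Deposited RPKM divides the count by coding length, and RPKM was used to compare genes.

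Counts were tested with edgeR 4.0.16 (filterByExpr, TMM, quasi-likelihood, R 4.3.3), with Benjamini-Hochberg adjustment over all genes, and with DESeq2 1.42.0 as an alternative. On simulated counts for this comparison with 200 changed genes among 16216 to 16220, edgeR called 27%, 68.5% and 88% of 4-, 8- and 16-fold changes and 3, 6 and 15 unchanged genes, and DESeq2 called 70%, 87% and 94.5% and 73, 84 and 74 unchanged genes. Standard errors of fold changes were derived from the test statistic. Shared 50-base stretches were counted between transcripts of GENCODE M21.

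Groups came from the sample titles. All values were given for the 4 members of each class with the highest mean RPKM, any called member and any with an outlying tumor. A few others, such as Krt2, Krt16, Krt36, Krt74 and Krt222, are named by value. The members, classes and marker lists were chosen with earlier results of these data known. Depth was 51824408 to 163297772 counts per tumor, and limits for counts of 0 (3 counts) cover counting error only and are too low if pairs were counted as 2. Alternatives were other scalings and filters, halved counts, tumor site as a covariate, trunk tumors alone, other RPKM thresholds and leaving out each tumor.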

Additional observations from a re-analysis of the deposited data

Results flagged for a closer look

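In 51 results (43 keratins on the log2 CPM scale and 8 class sums) the highest or lowest tumor was compared with the nearest other tumor relative to the whole range, and chance gives about 2.55 such results. There were 6, all in tumor 36. It was highest for Krt20, at a log2 CPM of 8.64 with the next tumor at -0.01, for Krt19 at 10.09 (next 5.44), for Krt8 at 11.14 (next 8.74) and for Krt82 at 1.60 (next -1.24). The summed simple epithelium keratins were highest there, at 10.97 on the log2 scale of RPKM with the next at 8.72, and the summed basal keratins were lowest, at 11.09 with the next at 11.96. The class sums of the simple and basal keratins share the genes listed singly or the tumor, and the 6 results are not independent.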

How the results depend on the processing

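No paired analysis was possible because the groups share no tumor numbers. All 72 recomputed class shares lay within 1 SD between tumors of the main median. That SD includes tumor 36 and is wide, so this check cannot show that the shares are stable. With a threshold of 5 RPKM in place of 1, 24 members and not 38 reached it in at least 1 tumor. Taken from counts and not RPKM, the median ratio of Krt5 to Krt14 was 1.58 and that of type II to type I chains 0.657. The only alternative tool, DESeq2, called 420 genes and 1 keratin (Krt16) where edgeR called 0 of both under the main and 13 other settings. Of the log2 fold changes of 13 named keratins, 156 recomputed values kept their direction and side of the threshold, 1 (Krt16) passed it and 22 changed sign. With site as a covariate and among trunk tumors alone these were Krt5 (0.21 and 0.21), Krt17 (0.084 and 0.081), Krt71 (-3.38 and -3.38), Krt35 (-3.76 and -3.77), Krt8 (-0.66 and -0.66), Krt23 (-0.75 and -0.76) and Krt20 (-0.77 and -0.78), and in both fits the only trunk tumor of FSP1-Cre;NT3 is tumor 29. When each tumor was left out in turn, the range was -1.07 to 0.25 for Krt4, where the sign turned without tumor 18, and -1.75 to 2.57 for Krt71, -1.93 to 2.23 for Krt35, -0.69 to 1.63 for Krt8, -0.73 to 0.29 for Krt23 and -0.87 to 7.94 for Krt20, each lowest without tumor 36; Krt23 also turned without tumor 13 and tumor 25, and Krt10 went from 0.32 to 5.25, highest without tumor 13. The cause of these changes was not tested. Without tumor 36, 30 members and not 38 reached 1 RPKM in at least 1 tumor. In an alternative chosen after seeing the data, the fold between the lowest and highest class sum was recomputed without tumor 36, and 7 of 8 classes narrowed, for example to 1.38 for basal, 1.64 for stress-induced and 1.94 for simple epithelium keratins. At the depth of these libraries, levels of Krt12, Krt24, Krt39 and Krt40 rest on few counts.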
